A study of Homo sapiens with 12 samples.

Results

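MYC is a transcription factor that drives cell growth, and its best known targets include the genes for making ribosomes. The genes described here are MYC and 34 genes of the nucleolus and of RNA polymerase I. They were taken as a named list of 35, set by name and role with earlier results of these data known. Of these 35 listed genes, 34 were measured, out of 35810 genes with a matched transcript in all. RRN3, an initiation factor of RNA polymerase I, is not analysed here because no transcript of it could be matched. All of the 34 measured genes passed the filter on low counts and were tested among 12821 genes. The RNA was polyadenylated RNA from HepG2, an established human hepatocellular tumour line. The libraries formed 4 groups of 3: ARID1B-KO cells with sorafenib, ARID1B-KO cells with DMSO, wild-type (WT) cells with sorafenib, and WT cells with DMSO. Sorafenib, an inhibitor of RAF and receptor tyrosine kinases, was given at 5 µM for 48 h, and DMSO at 0.1% by volume was the vehicle. ARID1B is a DNA-binding subunit of BAF, a complex that remodels chromatin. The gene was knocked out with CRISPR/Cas9. The number of clones behind the knockout libraries is not in the labels. The design text calls the 3 replicates biological.

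Ribosome production starts in the nucleolus, where RNA polymerase I copies the ribosomal DNA into a long precursor. Small nucleolar ribonucleoproteins (snoRNPs) of the box C/D kind methylate that precursor, and those of the box H/ACA kind turn uridines into pseudouridine. Assembly factors then fold and cut it into the RNAs of the small and the large subunit. Tumour cells that divide fast need much of this machinery, and MYC raises many of its genes together with the RNA polymerase I factors.

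Libraries held 19739582 to 29398257 estimated counts, and 6.75% to 12.3% of these were mitochondrial. ARID1B itself stood at 35.6, 25.9 and 26.5 CPM (counts scaled to a library of 1e6) in KO cells with sorafenib and 26.4, 28.0 and 27.6 CPM in KO cells with DMSO, against 67.5, 69.1 and 62.3 CPM in WT cells with sorafenib and 58.4, 61.9 and 66.7 CPM in WT cells with DMSO. The targeted transcript was thus lower in all 6 KO libraries but still present. All 10 of 10 hepatocyte markers reached at least 1 CPM, whereas CFTR of cholangiocytes, COL1A2 and DCN of fibroblasts, KDR of endothelium and PTPRC of leukocytes were at 0 in every library. At 1 CPM or more in some library were 3 of 5 cholangiocyte, 1 of 6 fibroblast, 2 of 4 endothelial and 3 of 6 leukocyte markers. The hepatocyte markers together held 120317 to 187541 CPM in KO cells with sorafenib, 94016 to 113055 CPM in KO cells with DMSO, 103331 to 112394 CPM in WT cells with sorafenib and 84169 to 93729 CPM in WT cells with DMSO. The leukocyte markers, almost all of it LYZ, held 489 to 625, 1849 to 2481, 838 to 953 and 3638 to 4049 CPM in the same order of groups. In that order the fibroblast markers held 0.938 to 1.64, 2.64 to 4.49, 3.19 to 4.74 and 13.8 to 22.1 CPM. The endothelial markers held 7.01 to 10.6, 2.93 to 6.70, 2.91 to 4.14 and 1.16 to 1.95 CPM. The cholangiocyte markers held 516 to 615, 434 to 501, 515 to 517 and 468 to 502 CPM. All 5 sums thus differed between sorafenib and DMSO without overlap in both genotypes. Single hepatocyte markers went both ways with sorafenib. Their log2 fold changes ran from -0.85 to 1.63 in KO cells, with 2 of 10 below 0. In WT cells they ran from -0.90 to 1.71, with 3 of 10 below 0. The part of all these markers in the results was not tested.

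MYC and nearly the whole ribosome-building list were lower with sorafenib than with DMSO in both genotypes. In KO cells 33 of the 34 genes were called lower and 0 higher with sorafenib against DMSO, where a call is an adjusted p under 0.05 in edgeR's quasi-likelihood test. The background was 23.7% of all genes called lower and 23% called higher in the same comparison, 46.7% in either direction. In WT cells 29 of the 34 genes were called lower and 1 higher, against 18% of all genes called lower and 17.5% called higher. The median log2 fold change of the list was -0.95 in KO cells and -0.73 in WT cells, beside 0.01 and -0.01 over all genes tested. Scaling by total counts alone lowered the share of higher calls among all calls to 38.3% in KO cells, against 49.3% with the scaling used here (TMM). These values are shares of each library, so fewer cells making ribosomes and less of this RNA per cell cannot be told apart. In KO cells all sorafenib values were below all DMSO values for 32 genes and above them for 0, beside 27.1% and 25.8% of all genes. In WT cells they were below for 31 genes and above for 1, beside 25.6% and 25.2% of all genes.

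The list's share of all counts shows the same in 1 value per library. The 34 genes held 0.285%, 0.331% and 0.393% of the counts in KO cells with sorafenib, against 0.601%, 0.616% and 0.712% in KO cells with DMSO. They held 0.422%, 0.386% and 0.424% in WT cells with sorafenib, against 0.660%, 0.624% and 0.624% in WT cells with DMSO. Every sorafenib library was below every DMSO library. The share with sorafenib was 0.523 ± 0.097 of that with DMSO in KO cells and 0.646 ± 0.040 of it in WT cells (SD, from the spread of both groups). Between the genotypes the DMSO groups overlapped, with 0.643% ± 0.0603 in KO and 0.636% ± 0.0209 in WT cells (SD, n = 3 each). With sorafenib the count shares of the genotypes overlapped too (the highest KO library was at 0.393% and the lowest WT library at 0.386%), whereas in TPM (the length-corrected unit) the highest KO library was at 4228 and the lowest WT library at 4279.

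**Figure D1:**
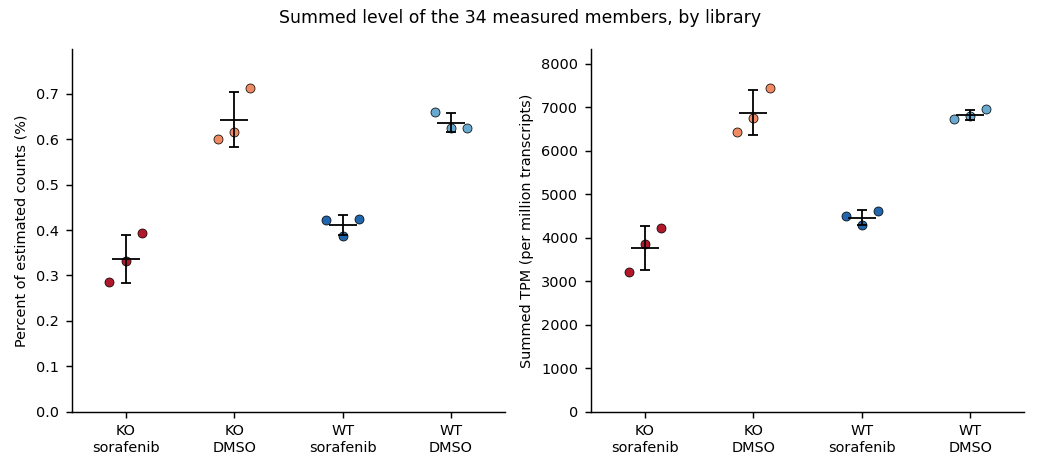
Summed level of the 34 measured genes in each library, as a percentage of estimated counts (left) and as summed TPM (right); points are libraries and bars are the mean ± SD of 3. Both sorafenib groups lie below both DMSO groups, and the KO libraries with sorafenib reach the lowest shares, 0.285% to 0.393%.

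MYC came to 77.2, 75.2 and 82.2 CPM in KO cells with sorafenib, against 130.5, 155 and 155 CPM in KO cells with DMSO. In WT cells it came to 94.9, 89.0 and 104 CPM with sorafenib, against 137, 141 and 145 CPM with DMSO. All 6 sorafenib libraries were below all 6 DMSO libraries, and with sorafenib all 3 KO libraries were below all 3 WT libraries. The log2 fold change with sorafenib was -0.91 ± 0.09 (SE) in KO cells (edgeR adjusted p = 4.31e-06) and -0.56 ± 0.09 in WT cells (edgeR adjusted p = 0.000326). The difference between those responses, -0.35 ± 0.12, did not pass the test over all genes (edgeR adjusted p = 0.190). KO cells with DMSO did not differ detectably from WT cells with DMSO in MYC (log2 fold change 0.06 ± 0.09, edgeR adjusted p = 0.658), and the sign of that small value turned to -0.23 with an offset for transcript length.

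**Figure D2:**
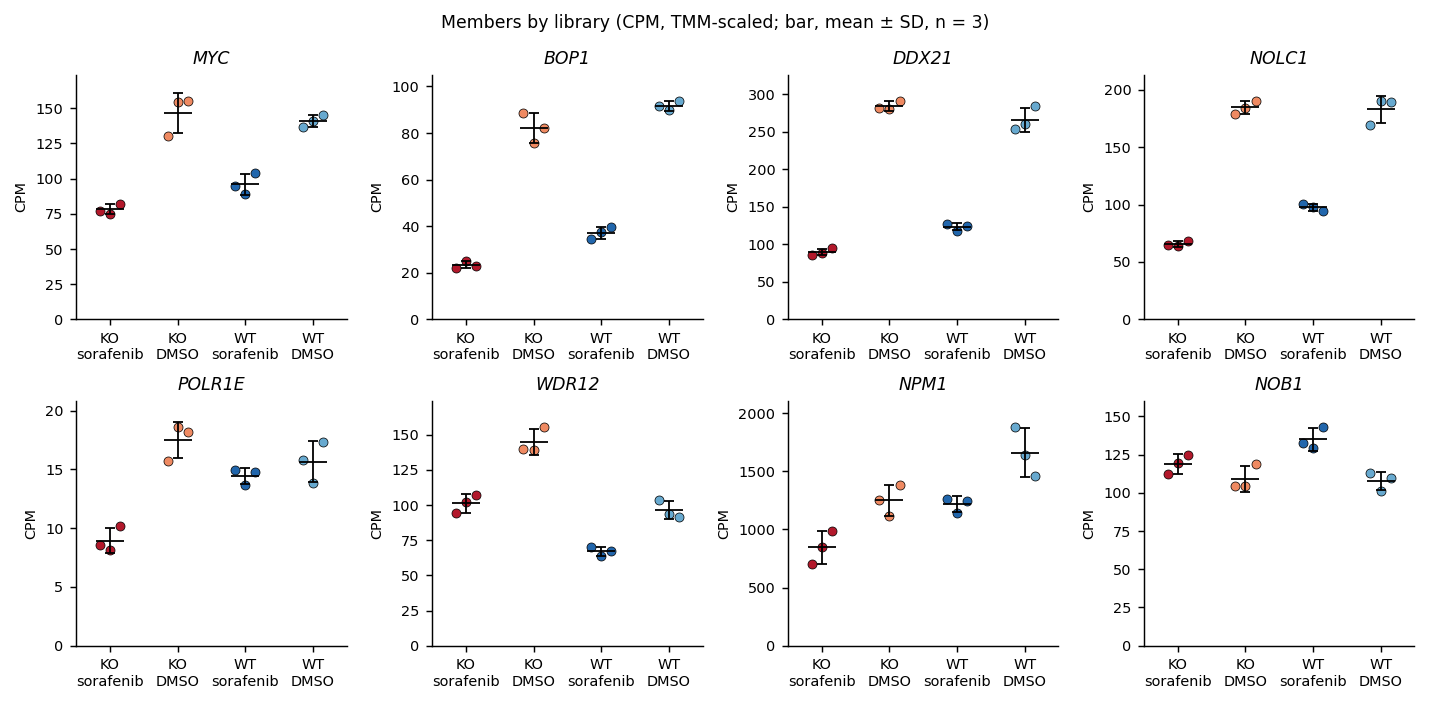
CPM of 8 of the genes in each of the 12 libraries, with the mean ± SD of 3 per group. MYC, BOP1, DDX21 and NOLC1 are lower in every sorafenib library than in every DMSO library, POLR1E is low in the KO libraries with sorafenib (8.12 to 10.2 CPM), and NOB1 is the gene that did not fall.

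The RNA polymerase I group had a smaller median fall than the list as a whole. POLR1A and POLR1B carry the catalytic centre, POLR1C is shared with RNA polymerase III, POLR1E belongs to a dimer that helps initiation, and UBTF binds the ribosomal DNA promoter. All 5 measured genes of the group were called lower in KO cells, with a median log2 fold change of -0.70, and 3 of them in WT cells, with a median of -0.24. UBTF had the smallest fall of the group in KO cells, -0.36 ± 0.07, which was -0.20 and no longer called with the offset for transcript length. In WT cells the 3 called genes were POLR1B, POLR1C and UBTF, and the call of UBTF (-0.19 ± 0.07, edgeR adjusted p = 0.0399) was lost under 15 of 21 other settings, with adjusted p up to 0.661. Leaving out any replicate of the WT sorafenib group, replicate 2 or 3 of either DMSO group or replicate 2 of the KO sorafenib group was enough to end it. POLR1C moved by -0.60 ± 0.09 in KO and by -0.70 ± 0.09 in WT cells. POLR1E is treated with the differences between genotypes.

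Transcripts for the proteins of both kinds of snoRNP were lower with sorafenib. FBL, the methyltransferase of box C/D snoRNPs, had log2 fold changes of -0.53 ± 0.09 in KO and -0.36 ± 0.09 in WT cells. Its core partners NOP56 and NOP58 had -0.73 ± 0.15 and -0.92 ± 0.13 in KO cells, beside -0.78 ± 0.15 and -0.80 ± 0.13 in WT cells. All 3 were called lower in both genotypes. FBL and NOP56 had less than 50% of their TPM in protein-coding transcripts in every library. DKC1, the pseudouridine synthase of box H/ACA snoRNPs, stood at 52.3, 58.6 and 65.8 CPM in KO cells with sorafenib, against 139, 144 and 147 CPM in KO cells with DMSO. In WT cells DKC1 stood at 74.9, 67.01 and 66.3 CPM with sorafenib, against 149, 137 and 129.95 CPM with DMSO. DKC1 was thus separate between drug and vehicle in both genotypes (log2 fold changes -1.28 ± 0.09 and -0.998 ± 0.09). GAR1 and NHP2, core proteins of the same particle, fell by 0.94 and 0.49 on the log2 scale in KO cells. In WT cells GAR1 was called lower and NHP2 was not (-0.23 ± 0.10, edgeR adjusted p = 0.0890).

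Among the 9 small-subunit factors, 8 were called lower in KO cells and 7 in WT cells. RRP9, a protein of the U3 snoRNP that guides early cuts, was at 16.6, 15.9 and 18.3 CPM in KO cells with sorafenib, against 39.8, 43.2 and 54.3 CPM in KO cells with DMSO. In WT cells RRP9 was at 17.4, 15.99 and 18.6 CPM with sorafenib, against 41.2, 41.3 and 40.8 CPM with DMSO. The groups were far apart in both genotypes, with log2 fold changes of -1.43 ± 0.11 and -1.25 ± 0.11 (edgeR adjusted p = 7.89e-07 and 3.77e-06). UTP20, WDR43 and NOP14 of the small-subunit processome and RRP12 and BYSL, which act on later precursors, fell by 0.94 to 1.18 on the log2 scale in KO cells. WDR75, another processome protein, changed less, by -0.43 ± 0.12 in KO and -0.48 ± 0.12 in WT cells.

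UTP4, also of the processome, varied most between replicates. It was at 13.8, 12.3 and 37.2 CPM in KO cells with sorafenib, against 59.0, 34.8 and 47.4 CPM in KO cells with DMSO. In WT cells UTP4 was at 49.0, 40.5 and 45.0 CPM with sorafenib, against 73.9, 80.3 and 84.0 CPM with DMSO. The groups overlapped in KO cells, where it was called lower (-1.16 ± 0.37, edgeR adjusted p = 0.0276), and did not overlap in WT cells, where it was not called (-0.82 ± 0.36, edgeR adjusted p = 0.104). The call in KO cells was lost under 6 of 21 other settings, among them leaving out replicate 1 or 3 of the DMSO group or replicate 1 or 2 of the sorafenib group, with adjusted p up to 0.115. On the length-corrected TPM scale the KO replicates of UTP4 ran in another order, 36.5, 31.7 and 23.9 TPM with sorafenib against 47.6, 85.1 and 64.9 TPM with DMSO, and did not overlap.

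NOB1 was the exception of the list. It encodes the endonuclease that makes the last cut of the small-subunit RNA. NOB1 was at 112, 119.6 and 125 CPM in KO cells with sorafenib, against 104, 105 and 119 CPM in KO cells with DMSO. In WT cells NOB1 was at 133, 129 and 143 CPM with sorafenib, against 113, 101 and 109.7 CPM with DMSO. The groups overlapped in KO cells (log2 fold change 0.12 ± 0.08, edgeR adjusted p = 0.247) and did not in WT cells, where NOB1 was called higher (0.32 ± 0.08, edgeR adjusted p = 0.00839). Scaling by total counts alone ended that call (0.27, adjusted p = 0.0895).

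All 7 large-subunit factors were called lower in both genotypes, and BOP1 had the lowest fold change of the list. BOP1 forms the PeBoW complex with PES1 and WDR12, which is needed to cut the precursor of the large subunit. BOP1 was at 22.3, 25.2 and 23.0 CPM in KO cells with sorafenib, against 88.5, 75.6 and 82.0 CPM in KO cells with DMSO. In WT cells BOP1 was at 34.6, 37.3 and 39.6 CPM with sorafenib, against 91.6, 89.7 and 93.9 CPM with DMSO. That left 0.286 of the DMSO level in KO cells (log2 fold change -1.80 ± 0.09, edgeR adjusted p = 1.33e-08) and 0.405 of it in WT cells (-1.30 ± 0.08, edgeR adjusted p = 2.15e-07). Its partners moved less: PES1 by -0.78 ± 0.07 in KO and -0.48 ± 0.07 in WT cells, and WDR12 by -0.52 ± 0.08 in both. NOP2, an RNA methyltransferase, GNL3, the GTPase nucleostemin, RRP1 and NOP16 fell by 0.87 to 1.07 on the log2 scale in KO cells.

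The other nucleolar genes were called lower in both genotypes, 5 of 5 each time. DDX21 is an RNA helicase that acts in transcription by RNA polymerases I and II. DDX21 was at 86.2, 88.3 and 95.0 CPM in KO cells with sorafenib, against 282, 280.0 and 291 CPM in KO cells with DMSO. In WT cells DDX21 was at 128, 118 and 125 CPM with sorafenib, against 254, 261 and 284 CPM with DMSO. The KO and WT groups overlapped with DMSO and were apart with sorafenib, and both sorafenib groups were below both DMSO groups. MYBBP1A, a nucleolar protein that binds MYB, was at 29.4, 24.9 and 27.8 CPM in KO cells with sorafenib, against 78.2, 80.7 and 80.9 CPM in KO cells with DMSO. In WT cells MYBBP1A was at 38.4, 43.5 and 42.6 CPM with sorafenib, against 76.5, 92.3 and 95.7 CPM with DMSO. The sorafenib groups of MYBBP1A lay apart from their DMSO groups and from each other, with fold changes of 0.343 in KO and 0.471 in WT cells. LYAR, a nucleolar zinc finger protein, and NCL (nucleolin) fell by 1.11 and 0.97 on the log2 scale in KO cells. NPM1 (nucleophosmin), the gene with the most counts of the list in most libraries, changed least of this group, by -0.56 ± 0.14 in KO and -0.45 ± 0.14 in WT cells. The WT call of NPM1 was lost without replicate 1 or 2 of the WT DMSO group or without any replicate of the WT sorafenib group, with adjusted p up to 0.102. NPM1 has many processed pseudogenes that can take up its reads, so its level is uncertain.

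**Figure D3:**
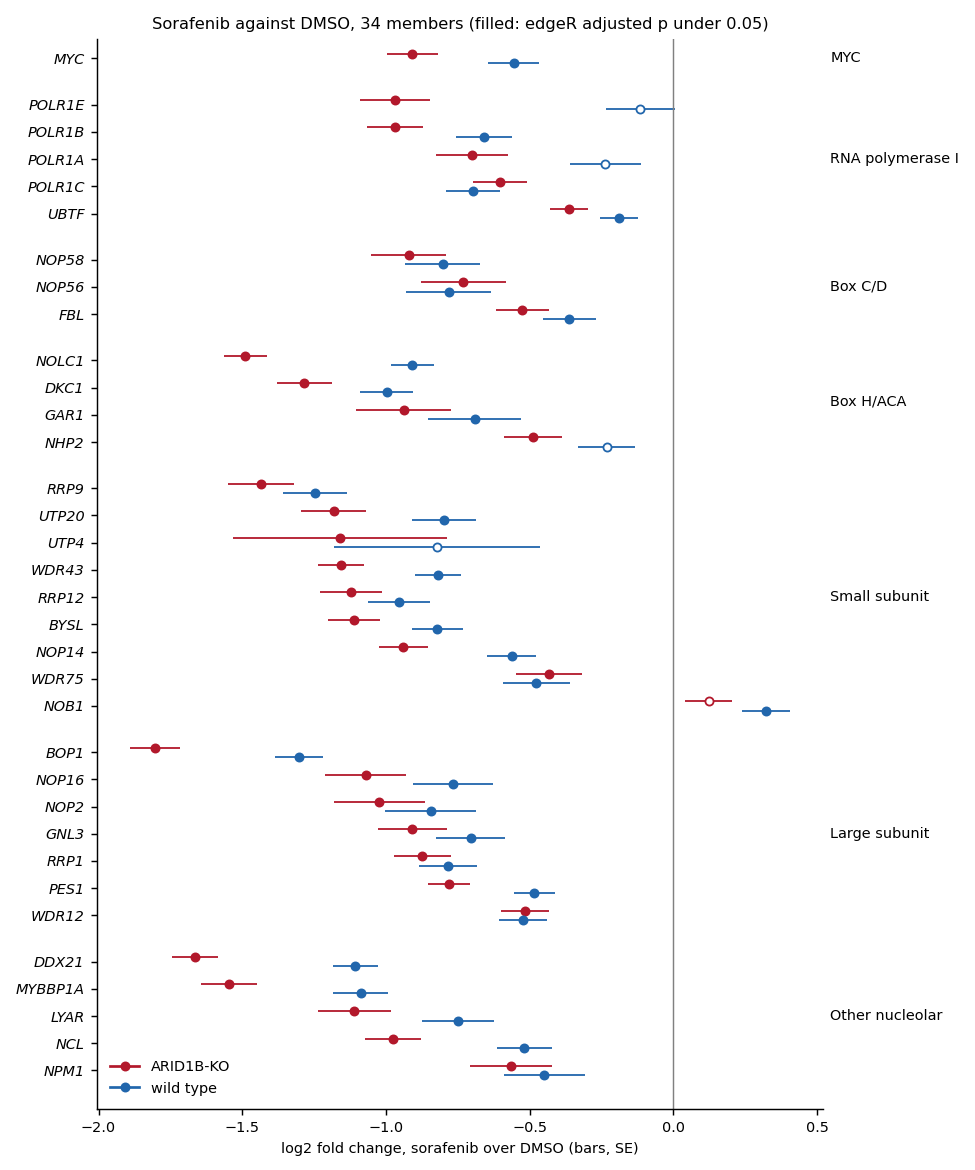
Log2 fold change of sorafenib over DMSO for the 34 genes, ordered by role, in ARID1B-KO cells (red) and WT cells (blue); bars are the SE, and filled points have an edgeR adjusted p under 0.05. Nearly all points lie left of 0, from -1.80 (BOP1 in KO cells) to 0.32 (NOB1 in WT cells), and the red point is the lower of the pair for 30 genes.

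By length-corrected level, NPM1, NCL, NOP56 and FBL were the most abundant of the list. NPM1 averaged 1172 ± 275 TPM in KO cells with sorafenib, 1816 ± 241 TPM in KO cells with DMSO, 1726 ± 103 TPM in WT cells with sorafenib and 2329 ± 201 TPM in WT cells with DMSO (SD, n = 3 each). NCL averaged 864 ± 28.8, 1915 ± 138, 1037 ± 15.1 and 1594 ± 207 TPM in the same order of groups. Their order was not settled in KO cells with DMSO, where NCL was ahead of NPM1 in the mean and their libraries overlapped. MYC ranked 16 to 18 among the 34 genes in the 4 groups, at 23.8 ± 3.30 TPM in KO cells with sorafenib and 52.3 ± 1.15 TPM in WT cells with DMSO. POLR1E, UTP20 and RRP12 stood at the low end, ranking between 29 and 34 of the 34 genes in every group. POLR1E averaged 5.00 ± 1.012, 10.4 ± 1.14, 8.11 ± 0.695 and 8.97 ± 1.28 TPM in the same order of groups. MYBBP1A ranked 34 in KO cells with sorafenib and 26 in WT cells with DMSO. These TPM levels depend on how reads were divided among transcripts of different length: FBL, NOP56, WDR12 and RRP1 had less than 50% of their TPM in protein-coding transcripts in every library, and NOP56 had 2.77% to 6.15%.

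The promoters of these genes were searched for CACGTG, the E-box to which MYC binds with its partner MAX. CACGTG is its own reverse complement, so a single search covers both strands. RefSeq promoters, reaching from 250 bases before to 50 bases after the start, were at hand for 29 of the 35 genes. Of these 29, 10 (34.5%) held CACGTG, as did 7.43% of all 27305 promoters in the table and 10.2% of the 9856 promoters found for the 12821 genes tested. Of genes called lower with sorafenib in KO cells, 12.9% of 2453 promoters held it, and of genes called higher 8.66% of 2287. Among the further lists below, it was in 50% of 18 for MYC targets outside the nucleolus and 37.5% of 16 for RNA polymerase III. Other small-subunit factors had 36.7% of 30, and other large-subunit factors 34.2% of 38. MYC partners and regulators had 21.1% of 19, exosome genes 18.2% of 11, snoRNP assembly 16.7% of 6 and further RNA polymerase I 11.1% of 9. The looser CANNTG, which includes CACGTG, was in 79.3% of the 29, in 68.9% of all and in 60.1% of those of genes tested. A match is a string in the reference and not a bound site. The MYC targets were listed as such and the other genes by role. A high share in these lists is thus not separate evidence of binding by MYC. Here are the 100 bases before the start of UTP20 at chr12:101280005-101280104 and of UTP4 at chr16:69132549-69132648, which held an E-box wholly upstream of the start (GRCh38.p14, plus strand, 5′ to 3′, E-box in capitals):
UTP20: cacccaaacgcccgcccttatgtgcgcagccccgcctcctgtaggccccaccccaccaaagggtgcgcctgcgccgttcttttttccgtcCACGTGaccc
UTP4: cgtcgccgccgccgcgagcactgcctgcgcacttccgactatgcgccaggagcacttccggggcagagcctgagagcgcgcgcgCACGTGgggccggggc

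In the other 8 the E-box touched or followed the start, and 24 bases around it are shown so that the flanks can be compared. They are RRP9 (chr3:51941895-51941918, minus strand), WDR43 (chr2:28894661-28894684, plus), FBL (chr19:39846359-39846382, minus), PES1 (chr22:30591883-30591906, minus), NOP14 (chr4:2963377-2963400, minus), MYBBP1A (chr17:4555343-4555366, minus), BYSL (chr6:41921518-41921541, plus) and NOP2 (chr12:6568242-6568265, minus), from RefSeq on GRCh38.p14, each written 5′ to 3′ on the strand of its gene:
RRP9: ttcagctgcCACGTGagttctgcg
WDR43: acggacgaaCACGTGgctgcagcg
FBL: gctcttttcCACGTGcgaaagccc
PES1: ttggcagggCACGTGcgggaggaa
NOP14: gcggcccggCACGTGtcttagggt
MYBBP1A: gccggagcaCACGTGtttcgtgtt
BYSL: ttcagtcccCACGTGcgatccttc
NOP2: tccggattgCACGTGgagggccgc

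The first base of the hexamer lay within 35 bases of the start in all 10. The window ended 50 bases after the start, and positions in other promoters were not compared. Counting the start as position 0, its first base was at -16 in UTP4, -10 in UTP20, -5 in RRP9, 3 in WDR43, 6 in FBL, 13 in PES1, 15 in NOP14, 27 in MYBBP1A, 28 in BYSL and 35 in NOP2. All 10 genes were called lower with sorafenib in KO cells, and so were genes without the string in this window, such as DDX21 and DKC1.

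The response to sorafenib was larger in KO than in WT cells for most of the list. The log2 fold change was lower in KO cells for 30 of the 34 genes, beside 6596 of all 12821 genes tested. The median difference was -0.29, beside -0.01 over all genes. More genes of any kind were called with sorafenib in KO cells, 46.7% of all genes against 35.4% in WT cells. The values over all genes pool rises with falls. Whether the list differs here from other genes that fell was not tested. The listed genes were read from the same libraries, on a list chosen with earlier results known. Their number is thus not a number of separate observations. A fitted fall of more than 2-fold was seen in 14 genes in KO cells and in 4 genes in WT cells, beside 5.13% and 3.99% of all genes. As a test of the difference itself, the interaction term called 3 of the 34 genes, all with the larger fall in KO cells. Of all genes it called 0.835% in either direction, 0.46% lower and 0.374% higher. At an unadjusted p under 0.05, 15 of the 34 had a lower log2 fold change in KO cells, beside 8.28% of all genes. The 3 genes, NOLC1, DDX21 and POLR1E, lost their calls when libraries were scaled by total counts alone, with an offset for transcript length, or with replicate number as a block, and DDX21 also without the filter on low counts. With DESeq2, 6 genes were called. Leaving out any library but replicate 3 of the KO sorafenib group ended at least 2 of the 3 calls.

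NOLC1 (chr10:102152176-102163871, GRCh38), a chaperone that brings snoRNPs to the nucleolus, had the smallest interaction p of the list. It was at 64.8, 64.0 and 68.5 CPM in KO cells with sorafenib, against 179, 184 and 190.1 CPM in KO cells with DMSO. In WT cells NOLC1 was at 101, 97.8 and 94.4 CPM with sorafenib, against 169.6, 190.5 and 189 CPM with DMSO. The genotypes overlapped with DMSO and were apart with sorafenib, and the responses differed by -0.58 ± 0.10 on the log2 scale (edgeR adjusted p = 0.0306). For DDX21 (chr10:68956135-68985068), whose values are given above, they differed by -0.56 ± 0.11 (edgeR adjusted p = 0.0411). BOP1 came near with -0.50 ± 0.12 and did not pass (edgeR adjusted p = 0.0614).

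POLR1E (chr9:37485948-37503697) was at 8.54, 8.12 and 10.2 CPM in KO cells with sorafenib, against 15.7, 18.6 and 18.2 CPM in KO cells with DMSO. In WT cells POLR1E was at 14.96, 13.7 and 14.7 CPM with sorafenib, against 15.8, 13.8 and 17.3 CPM with DMSO. The 3 KO libraries with sorafenib were below the other 9 libraries, among which the WT groups overlapped. Its log2 fold change was -0.97 ± 0.12 in KO cells (edgeR adjusted p = 3.62e-05) and -0.12 ± 0.12 in WT cells (edgeR adjusted p = 0.491), a difference of -0.85 ± 0.17 (edgeR adjusted p = 0.0414). It was one of 4 genes called lower in KO cells without a call in WT cells, with POLR1A, NHP2 and UTP4, and for those other 3 the difference did not pass (edgeR adjusted p = 0.216, 0.422 and 0.821).

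Without the drug the share of listed genes called between the genotypes was not above that of all genes. In DMSO 5 of the 34 genes were called higher in KO than in WT cells and 2 lower, beside 14.3% and 13.5% of all genes (27.8% in either direction), and the median log2 fold change was 0.06. KO and WT values did not overlap for 7 higher and 6 lower genes, beside 21.8% and 20.5% of all genes. These shares of the list lie near those of all genes, apart from the genes called lower, which were fewer. WDR12 was at 140.2, 139 and 156 CPM in KO cells with DMSO, against 104, 93.8 and 91.5 CPM in WT cells with DMSO. Every KO library was above every WT library, and the log2 fold change was 0.59 ± 0.08 (edgeR adjusted p = 0.000222). Neither of its PeBoW partners passed the test in DMSO (PES1 0.01 ± 0.07, BOP1 -0.16 ± 0.08, edgeR adjusted p = 0.917 and 0.162). In WDR12 13.7% to 24.7% of the TPM was in protein-coding transcripts.

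RRP1, a large-subunit factor with the paralog RRP1B, was at 43.7, 48.0 and 54.2 CPM in KO cells with DMSO, against 30.9, 34.1 and 35.6 CPM in WT cells with DMSO. NOP2 was at 52.3, 54.6 and 75.8 CPM in KO cells with DMSO, against 40.2, 37.2 and 45.1 CPM in WT cells with DMSO. Both were without overlap and called higher (RRP1 0.54 ± 0.10, NOP2 0.58 ± 0.16, edgeR adjusted p = 0.00155 and 0.0151). With the offset for transcript length the sign of NOP2 turned, to -0.35, and its call was also lost without replicate 2 of the WT DMSO group or replicate 3 of the KO DMSO group. LYAR (0.49 ± 0.12) and WDR43 (0.23 ± 0.08) were the other genes called higher, and WDR43 kept its call under 5 of 21 other settings. LYAR lost its call with the length offset and without replicate 3 of the WT DMSO group.

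Called lower in KO cells with DMSO were NPM1 and NHP2. NPM1 was at 1255, 1112 and 1383 CPM in KO cells with DMSO, against 1879, 1638 and 1459.8 CPM in WT cells with DMSO. NHP2 was at 37.7, 48.0 and 47.8 CPM in KO cells with DMSO, against 59.3, 54.3 and 50.7 CPM in WT cells with DMSO. The groups did not overlap for either gene, yet both calls were at the threshold (edgeR adjusted p = 0.0481 and 0.0412) and were lost under 13 of 21 other settings for NPM1 and 11 of 21 for NHP2. Leaving out replicate 1 or 2 of the WT DMSO group, replicate 1 of the KO DMSO group, replicate 2 of the KO sorafenib group or any replicate of the WT sorafenib group ended both calls, and leaving out replicate 2 of the KO DMSO group ended that of NPM1.

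With sorafenib the list was lower in KO than in WT cells in more genes. In that comparison 14 of the 34 genes were called lower and 3 higher, beside 13.8% and 13.2% of all genes (27% in either direction), and the median log2 fold change was -0.22, beside -0.00 over all genes. KO and WT values did not overlap for 20 lower and 3 higher genes, beside 22.2% and 20.5% of all genes. This comparison uses the same sorafenib libraries as the drug comparisons above and is not separate evidence. Called lower were MYC, POLR1A, POLR1E, GAR1, NHP2, NOLC1, NOP14, UTP20, BYSL, PES1, BOP1, NPM1, DDX21 and MYBBP1A. Their log2 fold changes ran from -0.69 ± 0.12 in POLR1E to -0.28 ± 0.07 in PES1, with BOP1 at -0.66 ± 0.08 and MYBBP1A at -0.60 ± 0.10 (edgeR adjusted p = 0.00115, 0.0111, 0.000110 and 0.000654). MYC was at -0.29 ± 0.09 (edgeR adjusted p = 0.0253). Its call was lost under 6 of 21 other settings, among them leaving out replicate 1 or 3 of the WT sorafenib group or replicate 1 or 2 of the KO sorafenib group, with adjusted p up to 0.109. The call of GAR1 (-0.48 ± 0.17, edgeR adjusted p = 0.0473) was lost under 14 of 21 other settings, with adjusted p up to 0.184. Leaving out any library but replicate 3 of either KO group ended it. NPM1 lost its call without replicate 1 or 3 of the WT sorafenib group or replicate 1 or 2 of the KO sorafenib group, and POLR1A without replicate 2 of the WT sorafenib group or replicate 2 or 3 of the KO sorafenib group. NOP14 lost its call without replicate 2 of the WT sorafenib group. None of the box C/D genes was called, with values from -0.07 ± 0.09 in FBL to 0.07 ± 0.15 in NOP56.

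WDR12, RRP1 and WDR75 were called higher in KO than in WT cells with sorafenib. WDR12 was at 94.2, 102 and 107 CPM in KO cells with sorafenib, against 70.4, 63.5 and 67.1 CPM in WT cells with sorafenib. RRP1 was at 26.2, 24.4 and 29.0 CPM in KO cells with sorafenib, against 18.3, 20.1 and 20.1 CPM in WT cells with sorafenib. WDR75 was at 50.5, 52.4 and 65.6 CPM in KO cells with sorafenib, against 49.8, 37.7 and 45.4 CPM in WT cells with sorafenib. The groups were apart by a wide gap in WDR12 and RRP1 and by a narrow one in WDR75 (log2 fold changes 0.59 ± 0.08, 0.45 ± 0.10 and 0.34 ± 0.12, edgeR adjusted p = 0.000236, 0.00586 and 0.0458). The call of RRP1 was lost with the offset for transcript length (0.14), and that of WDR75 without replicate 2 or 3 of any of the WT DMSO, WT sorafenib and KO sorafenib groups. WDR12 was thus higher in KO cells with and without the drug and lower with the drug in both genotypes, with an interaction of 0.01 ± 0.12.

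**Figure D4:**
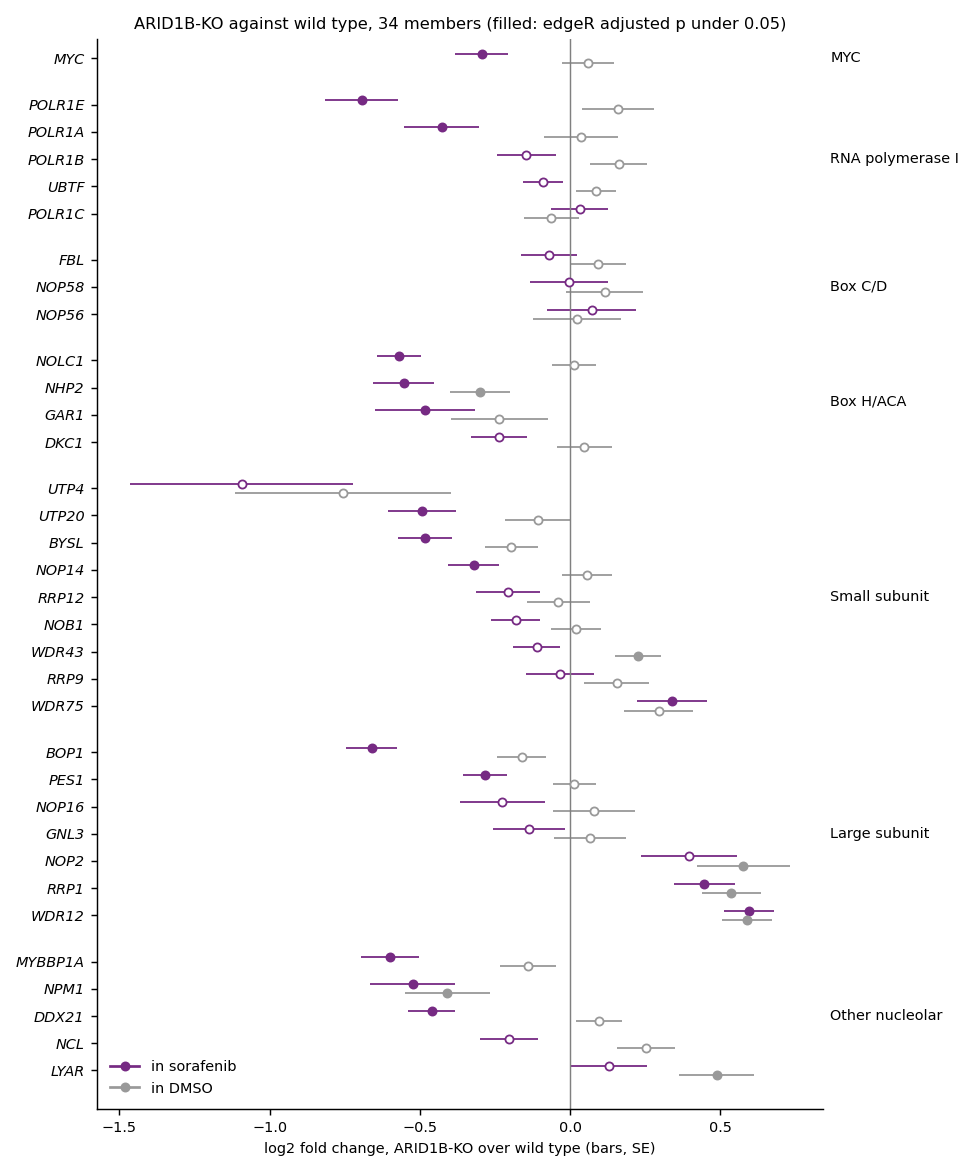
Log2 fold change of ARID1B-KO over WT for the 34 genes, ordered by role, in sorafenib (purple) and in DMSO (grey); bars are the SE, and filled points have an edgeR adjusted p under 0.05. The grey points scatter about 0, most purple points lie left of it, and WDR12 lies right of it in both, at 0.59.

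Further genes of the same machinery, from lists drawn up for this description, went the same way with sorafenib. These lists were chosen with earlier results of these data known and use the same libraries, so they are not separate evidence. Over all genes, 23.7% were called lower and 23% higher in KO cells, and 18% and 17.5% in WT cells. Of 33 other small-subunit factors tested, 31 were called lower in KO cells and 24 in WT cells, with none called higher. TSR1, a GTPase-like factor of late small-subunit maturation, had log2 fold changes of -1.21 ± 0.08 in KO and -0.76 ± 0.08 in WT cells (edgeR adjusted p = 2.31e-07 and 1.35e-05). Of 43 other large-subunit factors, 39 were called lower in KO cells and 35 in WT cells, with 1 called higher in each. RRS1, which brings the 5S particle into the large subunit, was at 15.3, 16.2 and 18.1 CPM in KO cells with sorafenib, against 46.2, 48.2 and 54.2 CPM in KO cells with DMSO. MRTO4, a placeholder for a stalk protein of the ribosome, changed by -1.39 ± 0.09 in KO and -1.05 ± 0.09 in WT cells. The gene called higher was NOP53, named here after its values were seen (0.43 ± 0.10 in KO and 0.46 ± 0.10 in WT cells). WDR46 was near or at 0 CPM in some libraries and at 29.5 CPM in another, and its fold change is not read here.

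RNA polymerase I and its partners outside the list were more mixed. Of 10 such genes, 5 were called lower and 1 higher in KO cells, and 6 lower and 0 higher in WT cells. For the counts of this paragraph, the shares of all genes were 23.7% lower and 23% higher in KO cells. In WT cells those shares were 18% and 17.5%. POLR1G, which pairs with POLR1E in the polymerase, had log2 fold changes of -1.94 ± 0.15 in KO and -1.22 ± 0.14 in WT cells. TCOF1, the treacle protein that supports ribosomal DNA transcription, was at 61.2, 62.1 and 60.3 CPM in KO cells with sorafenib, against 161, 159 and 145 CPM in KO cells with DMSO. In WT cells TCOF1 was at 118, 119 and 113 CPM with sorafenib, against 151, 183 and 187 CPM with DMSO. The KO libraries with sorafenib of TCOF1 lay below all others. The other called genes were POLR1F, TAF1A and TAF1B, lower in both genotypes, TAF1D, lower in WT cells, and TAF1C, higher in KO cells (0.48 ± 0.17), and these 5 are named after their values were seen. Of 9 snoRNP assembly factors, 6 were called lower in KO cells (NAF1 -0.85 ± 0.10) and 5 in WT cells (PIH1D1 -0.49 ± 0.08), and of 13 exosome and exonuclease genes, which trim the precursors, 10 were called lower in KO cells (EXOSC6 -0.72 ± 0.08) and 9 in WT cells (EXOSC5 -0.77 ± 0.13).

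MYC targets outside the nucleolus were also mostly lower. Of 20 genes, 17 were called lower in KO cells and 15 in WT cells, beside 23.7% and 18% of all genes. None was called higher, beside 23% and 17.5% of all genes. GART, an enzyme of purine synthesis, was at 40.2, 42.1 and 38.6 CPM in KO cells with sorafenib, against 86.9, 84.9 and 87.7 CPM in KO cells with DMSO. In WT cells GART was at 59.4, 57.6 and 57.0 CPM with sorafenib, against 88.6, 96.6 and 95.0 CPM with DMSO. All sorafenib values of GART were below all DMSO values. The median log2 fold change of the 20 genes was -0.78 in KO and -0.60 in WT cells. Between KO and WT cells in DMSO 2 were called higher and 2 lower, beside 14.3% and 13.5% of all genes. PPAT, another purine enzyme, was among the higher ones, at 0.45 ± 0.09.

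**Figure D5:**
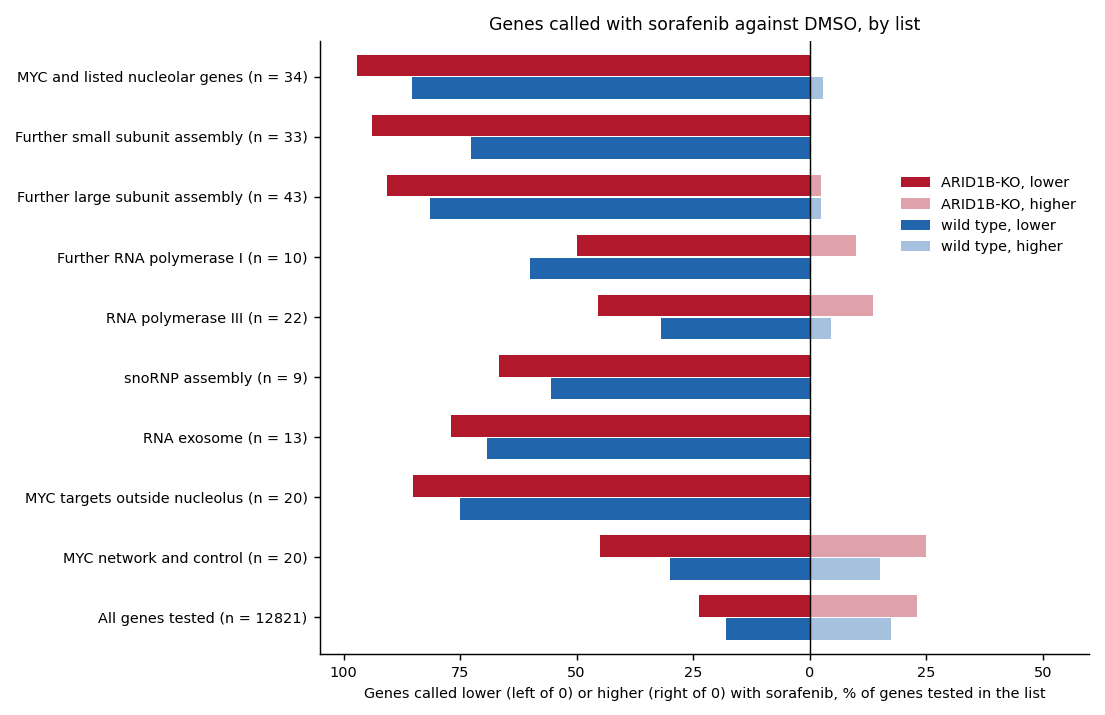
Share of the tested genes of each list called lower (left of 0) or higher (right of 0) with sorafenib against DMSO, in ARID1B-KO cells (red) and WT cells (blue), with all 12821 genes tested at the bottom. In the further small- and large-subunit assembly lists 31 of 33 and 39 of 43 genes are called lower in KO cells. In WT cells 24 of 33 and 35 of 43 are. All genes tested are balanced at 23.7% lower and 23% higher in KO cells.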

How the data were processed

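Per the labels' protocols, libraries were made from polyadenylated RNA (750 ng of total RNA, 9 PCR cycles, paired reads of 75 bp). Each library has 1 table deposited by the authors, which per the file headers gives an estimated count and a TPM for each transcript. The TPM are scaled to 1e6 within a library and corrected for effective length. The submitters' processing notes name Salmon, DESeq2 1.46.0 and GRCh38, and the design text names Ensembl 109. Bias settings and the Salmon version are not given in the sources used here.

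Estimated counts were summed per gene through GENCODE 44 identifiers (165533 of 177456 transcripts matched, the others holding 2.87% to 3.20% of counts) and rounded. All 12 libraries entered 1 fit in edgeR 4.0.16 (R 4.3.3) with 4 group means, TMM scaling and filterByExpr, and p-values were adjusted by Benjamini and Hochberg over 12821 genes. The SE is the absolute log2 fold change over the square root of F. The script was tested on simulated data. CPM are TMM-scaled and used within a gene, TPM between genes. An exact permutation test of 3 against 3 libraries cannot give a two-sided p below 0.1, so none was run. Replicates of a group differed by more than counting noise. The p-values measure the spread between these libraries, and the number of knockout clones behind them is not given.

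The members and lists were chosen with earlier results of these data known. Values in every library were given for MYC, for up to 3 called rises and 3 called falls per comparison and for genes called in the interaction. Those of DKC1 and UTP4 were given outside this rule. From each further list the called gene with the smallest adjusted p in each drug comparison and in KO against WT with DMSO was named. Alternatives were DESeq2 1.42.0, other scalings and filters, a length offset, a replicate block, 6-library fits and leaving out each library. RRN3 and SURF6 matched no transcript and are not analysed here. Reads of near-identical sequences (NPM1 pseudogenes, RRP1 and RRP1B) may be divided wrongly between copies. One other gene of the further lists is not reported here.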

Additional observations from a re-analysis of the deposited data

Results flagged for a closer look

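Among the listed genes reported here, the response to sorafenib was called different in 4 between ARID1B-KO and WT cells by the interaction test of edgeR. Each of the 4 had the larger fall in KO cells. These calls depend on the processing. NOLC1 lost its call under 13 of 20 other settings, POLR1E under 14 and DDX21 under 15. Whether TCOF1 kept its call under other settings was not checked. TCOF1, the treacle protein, had a difference of -0.77 on the log2 scale, with -1.34 ± 0.09 in KO cells and -0.57 ± 0.09 in WT cells. NOLC1, the snoRNP chaperone, had a difference of -0.58. DDX21, the helicase, had a difference of -0.56. POLR1E, the RNA polymerase I subunit, had a difference of -0.85. Groups of 3 libraries were not searched for single outlying samples.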

How the results depend on the processing

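In the drug comparisons the counts of listed genes called lower stayed at 32 to 33 of 34 in KO cells and 26 to 30 in WT cells under every setting tried, and 31 of 33 and 26 of 30 called genes kept their calls throughout; 8 of 17 did so for KO against WT with sorafenib, 2 of 7 with DMSO and 0 of 3 for the interaction. An offset for transcript length left 2867 genes called with sorafenib in WT cells (4543 without it), 2189 for KO against WT with DMSO (3563) and 2046 with sorafenib (3463), 2 higher and 1 lower listed genes with DMSO and 9 lower with sorafenib; it turned the sign of NOP2 to -0.35 and of MYC to -0.23 for KO against WT with DMSO. The interaction called 107 genes and 3 listed genes. It called 584 and 6 with DESeq2, 30 and 0 with total counts, 2 and 0 with the length offset, and 5 to 138 genes and 0 to 3 listed genes without each library in turn. Total counts left 0 listed genes higher in WT cells with sorafenib and 0 lower for KO against WT with DMSO. For that last count, no filter or only the 6 libraries of the comparison gave 1, and leaving out each library gave 0 to 3, with 3 to 7 higher. Without NPM1 and NCL, an alternative chosen after seeing the data, the list's share in WT cells with sorafenib was 0.606 of that with DMSO. CANNTG in place of CACGTG was in 79.3% of promoters. The cause of these changes was not tested.

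Replicate numbers were not taken to pair libraries, since the correlations of same-numbered libraries ran from -0.12 to 0.18. In the drug comparison of WT cells, though in no other, every library correlated best with its own number. With replicate number as a block the interaction called 19 genes and 0 listed genes, and 0 listed genes were lower for KO against WT with DMSO.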

Other observations

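RNA polymerase III, which makes 5S ribosomal RNA and transfer RNAs, had calls in both directions: of 22 genes tested, 10 were called lower and 3 higher with sorafenib in KO cells, beside 23.7% and 23% of all genes. In WT cells 7 were called lower and 1 higher, beside 18% and 17.5% of all genes. POLR3G and POLR3GL encode alternative versions of the same subunit and moved in opposite directions; POLR3GL is named after its values were seen. POLR3G was at 2.86, 2.11 and 1.83 CPM in KO cells with sorafenib, against 9.41, 8.27 and 9.86 CPM in KO cells with DMSO, and at 3.59, 3.88 and 3.01 CPM in WT cells with sorafenib, against 9.31, 8.80 and 8.43 CPM in WT cells with DMSO. POLR3GL was at 14.8, 16.1 and 19.1 CPM in KO cells with sorafenib, against 8.89, 7.502 and 7.45 CPM in KO cells with DMSO, and at 17.8, 16.5 and 17.6 CPM in WT cells with sorafenib, against 9.52, 7.35 and 9.26 CPM in WT cells with DMSO. No group of either gene overlapped its DMSO group. The log2 fold changes were -2.01 ± 0.18 and 1.07 ± 0.13 in KO cells (edgeR adjusted p = 1.80e-06 and 3.49e-05) and -1.34 ± 0.17 and 0.99 ± 0.13 in WT cells (edgeR adjusted p = 5.67e-05 and 9.57e-05). POLR3E, another subunit, changed by -0.75 ± 0.08 in WT cells, and BDP1, a subunit of the initiation factor TFIIIB, was lower in KO than in WT cells with DMSO (-0.52 ± 0.09).

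The partners and regulators of MYC did not move as a block. Of 20 tested, 9 were called lower and 5 higher with sorafenib in KO cells, beside 23.7% and 23% of all genes. In WT cells 6 were called lower and 3 higher, beside 18% and 17.5% of all genes. RUVBL1, an ATPase of the complexes that MYC recruits, fell by 0.82 on the log2 scale in KO cells. Called higher in both genotypes were MXD1, MXD4 and MLXIPL, named after their values were seen. MXD1 and MXD4 pair with MAX in place of MYC, and MLXIPL is the carbohydrate response factor ChREBP. Other genes of this list that pair with MAX went both ways. Mean CPM of MXD3 and MNT were higher with sorafenib in both genotypes, and those of MXI1 and MGA lower. MGA averaged 40.1 CPM with sorafenib and 59.1 with DMSO in KO cells, and 40.9 and 48.2 in WT cells. PIM1, a kinase that stabilises MYC, was at 18.0, 14.1 and 16.9 CPM in KO cells with sorafenib and 25.1, 28.1 and 30.5 CPM in KO cells with DMSO, beside 41.5, 41.1 and 38.4 CPM in WT cells with sorafenib and 74.9, 76.7 and 81.5 CPM in WT cells with DMSO. The 4 groups of PIM1 did not overlap, and it was lower in KO than in WT cells with DMSO (-1.48 ± 0.10, edgeR adjusted p = 3.85e-07). Among genes called higher in KO cells with DMSO were TAF1A of the RNA polymerase I factor SL1 (0.57 ± 0.18), WDR3 of the small-subunit processome (0.40 ± 0.07), RRP1B (0.56 ± 0.08) and EXOSC6 of the exosome (0.35 ± 0.08), while PIH1D1 was lower (-0.32 ± 0.08).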
